A study of Mus musculus with 2 samples.

Results

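Tubulins, kinesins and cytoplasmic dynein, the proteins of microtubules and of the motors that walk along them, were examined in RNA of mouse heart against RNA of mouse embryonic fibroblasts (MEF). Members were the genes whose symbol in the platform annotation begins with Tuba, Tubb, Tubg, Kif, Klc, Dync or Dynl followed by a number or a lower-case letter. The rule gave 77 genes of 19532 with a named probe, measured by 158 probes. They comprised 5 alpha-tubulins, 7 beta-tubulins, 7 gamma-tubulins and ring complex proteins, 13 mitotic kinesins, 17 transport kinesins, 9 ciliary, atypical and other kinesins, 4 kinesin light chains and adaptors, 1 kinesin-binding protein, and 14 dynein subunits. The rule reads gene symbols and no measured value.

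The study held 2 two-colour Agilent arrays, 1 for the heart numbered 1 and 1 for the heart numbered 2. Heart tissue was untreated and was not cultured, and its RNA was labelled with Cy3; the MEF were grown in DMEM with serum, and their RNA was labelled with Cy5 on both arrays. No strain, age or sex is labelled, and separate animals or separate MEF preparations are not stated, so p-values measure only the spread between 2 arrays, which may be technical. Dyes were not exchanged, so any preference of a probe for a dye remains in its ratio. The log base of the deposited values is not stated, and the fold values given here rest on base 2. The deposited value of a probe was read as the log2 ratio of heart over MEF. This direction is likely rather than stated: the design text describes expression of heart relative to MEF, and all 14 cardiomyocyte markers examined were positive (median 6.78) while all 9 fibroblast markers were negative (median -3.77). The array medians over all probes were 0.07 and -0.14, and how the values were centred is unknown, so calls on small ratios depend on an unknown zero.

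Microtubules are hollow filaments of alpha- and beta-tubulin that are nucleated by gamma-tubulin rings. In dividing cells they form the spindle, on which mitotic kinesins separate chromosomes and complete cytokinesis; in all cells, transport kinesins carry cargo mostly outward and cytoplasmic dynein carries it inward. Adult cardiomyocytes rarely divide and hold a dense microtubule lattice around their nuclei and between their myofibrils, while MEF are dividing cells in culture. Fewer cells of a type and less RNA per cell cannot be told apart in RNA of a whole tissue.

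Of the 77 genes, 21 were higher in heart, 45 were lower and 11 did not pass (limma moderated test of the mean ratio against 0, Benjamini-Hochberg adjusted p under 0.05 over all 19532 genes). Over all genes, 33.8% were called higher and 39.3% lower, and 73.1% in either direction. The median ratio of the 77 genes was -0.62, against -0.04 over all genes. At least 2-fold on both arrays, 11 genes were higher and 30 lower in heart, where the backgrounds were 18.1% and 18.5% of all genes. The 2 arrays differed by less than 0.5 for 71 of the 77 genes (92.2%), near the 91.8% of all genes.

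The mitotic kinesins were the lowest class. Of 13 measured, 10 fell in heart, 0 rose and 3 did not pass. At least 2-fold lower on both arrays were also 10, against 18.5% of all genes, but not the same 10. Kif11 was called but was at -0.81 on heart-1, while Kif18b met the 2-fold rule and was not called. The share lower was 10 of 13, where the background was 39.3%, and the class median was -3.44 on heart-1 and -2.66 on heart-2. Kif14, on the same list, is not analysed here.

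The lowest mean ratios were those of Kifc5b, Kifc1 and Kif2c. Kifc5b, a close mouse relative of Kifc1, stood at -4.91 and -4.90 on the heart-1 and heart-2 arrays. Kifc1, a minus-end motor that gathers microtubules at spindle poles, stood at -4.67 and -4.60. Kifc1 was therefore 24.8-fold lower in heart (mean -4.63 ± 0.05, SD, n = 2; limma adjusted p = 0.00136), and Kifc5b had the same adjusted p; transcripts of such close copies may share a probe. Kif2c, which takes microtubules apart at kinetochores, was at -4.39 and -3.77, 16.9-fold lower in heart (limma adjusted p = 0.00399). Kif18b, which shortens astral microtubules, was at -4.93 on heart-1 but -2.47 on heart-2, and this spread left it just outside the threshold (limma adjusted p = 0.0502).

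Next in order of their means came Kif20a, Kif4, Kif20b and Kif22. Kif20a, which acts at the central spindle during cytokinesis, was at -3.68 and -3.69 on the heart-1 and heart-2 arrays, 12.8-fold lower in heart. Kif4, a chromosome-bound motor that also organises the central spindle, was at -3.44 and -3.50. Kif20b, another cytokinesis motor, was at -3.71 and -3.21, and Kif22, which pushes chromosome arms from the poles, at -2.61 and -2.66. These genes all fell, with limma adjusted p between 0.00136 and 0.00361, and their arrays differed by at most 0.49.

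Among the mitotic kinesins with means above -2, 4 had probe means spread over more than 1 log2 unit and 1 had a single probe. Kif23, a subunit of centralspindlin, which builds the cleavage furrow's midzone, fell to a gene mean of -1.38 and -1.67, 2.88-fold lower in heart (limma adjusted p = 0.00618). Its probe means were -3.34, -3.03 and 1.79; the positive probe is tied in the annotation to a record other than a RefSeq mRNA. Kif11, the motor that pushes spindle poles apart, fell to -0.81 and -1.28 (limma adjusted p = 0.0249), with probe means of -2.66, -0.48 and 0.00; with the median of the probes it was at -0.48 and did not pass. Kif18a, which damps chromosome movements at metaphase, fell to -1.45 and -1.13 (limma adjusted p = 0.00941), with probe means of -2.59 and 0.01. In both genes the probe at 0 was likewise tied to another record. These probes of Kif11 and Kif18a lay inside the narrow band of near-constant values that both arrays hold. Without probes in this band, the mean was -1.57 for Kif11 and -2.59 for Kif18a. Kif15, which helps to hold the poles apart, did not pass at -0.31 and -0.93 (limma adjusted p = 0.105), with 1 of its 3 probe means at -1.83 and the others near 0. Of its probes near 0, that tied to a RefSeq mRNA lay inside the same band. Kif2b, a relative of Kif2c, did not pass at 0.14 and -0.16, and its only probe also lay inside this band.

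Markers of proliferating cells moved with this class. All 10 measured of 11 listed (Ttk, Plk1, Mki67, Aurka, Ccnb2, Ccna2, Aurkb, Top2a, Cdk1 and Bub1) fell in heart, with single-array values between -4.61 and -2.06 and a median of -3.63. Their part in the ratios of the mitotic kinesins was not tested.

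The promoters of the mitotic kinesins are shown because their genes moved together. Genes that are switched on late in the cell cycle commonly carry a cell cycle genes homology region (CHR, TTTGAA), to which the DREAM and MuvB complexes bind close to the start site, together with CCAAT boxes, which bind NF-Y. RefSeq promoter windows of assembly GRCm38.p6, from 250 bases before to 50 after the start, were matched for 62 of the 77 genes. Below are the 160 bases from 110 before to 50 after the start, written on the strand of the gene. Capitals mark TTTGAA or its complement TTCAAA, and CCAAT or its complement ATTGG. The stretches are chr17:33890584-33890743 on the minus strand for Kifc1, chr11:102925075-102925234 on the minus strand for Kif18b, chrX:100625955-100626114 on the plus strand for Kif4, chr19:34922248-34922407 on the plus strand for Kif20b and chr7:127042371-127042530 on the minus strand for Kif22. For Kif23 the stretch is chr9:61946750-61946909 on the minus strand, and for Kif11 chr19:37376272-37376431 on the plus strand. Kif18a (chr2:109280628-109280787 on the plus strand) and the transport kinesin Kif13a (chr13:46929669-46929828 on the minus strand) are shown for comparison, as windows without either motif.
Kifc1: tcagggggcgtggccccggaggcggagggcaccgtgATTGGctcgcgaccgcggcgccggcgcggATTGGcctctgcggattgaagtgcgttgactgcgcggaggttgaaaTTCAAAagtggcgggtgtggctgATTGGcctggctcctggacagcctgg
Kif18b: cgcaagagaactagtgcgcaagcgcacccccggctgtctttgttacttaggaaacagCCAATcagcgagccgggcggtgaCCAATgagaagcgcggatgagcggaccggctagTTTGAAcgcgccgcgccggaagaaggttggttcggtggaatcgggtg
Kif4: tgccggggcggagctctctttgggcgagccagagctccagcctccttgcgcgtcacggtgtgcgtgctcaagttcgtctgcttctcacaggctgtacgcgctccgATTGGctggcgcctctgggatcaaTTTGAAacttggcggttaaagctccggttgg
Kif20b: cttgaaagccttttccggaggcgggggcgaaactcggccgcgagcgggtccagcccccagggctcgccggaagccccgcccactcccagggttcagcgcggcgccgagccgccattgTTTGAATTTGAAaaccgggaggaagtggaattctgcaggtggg
Kif22: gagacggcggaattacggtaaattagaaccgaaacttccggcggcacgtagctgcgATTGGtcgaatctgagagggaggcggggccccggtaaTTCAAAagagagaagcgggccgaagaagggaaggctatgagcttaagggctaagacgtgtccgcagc
Kif23: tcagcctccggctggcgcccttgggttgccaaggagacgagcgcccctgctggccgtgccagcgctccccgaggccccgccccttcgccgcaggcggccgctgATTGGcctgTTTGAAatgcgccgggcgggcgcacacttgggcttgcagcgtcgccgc
Kif11: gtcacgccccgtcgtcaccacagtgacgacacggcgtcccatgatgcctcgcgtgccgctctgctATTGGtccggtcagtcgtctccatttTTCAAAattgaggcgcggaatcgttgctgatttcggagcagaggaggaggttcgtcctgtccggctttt
Kif18a: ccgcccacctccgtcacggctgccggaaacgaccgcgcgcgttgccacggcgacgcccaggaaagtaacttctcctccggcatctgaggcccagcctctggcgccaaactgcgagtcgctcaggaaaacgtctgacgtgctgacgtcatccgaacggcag
Kif13a: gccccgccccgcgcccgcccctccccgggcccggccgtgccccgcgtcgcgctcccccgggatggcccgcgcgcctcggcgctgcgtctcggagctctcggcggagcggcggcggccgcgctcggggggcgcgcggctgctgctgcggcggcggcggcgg

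The CHR letters were found on either strand in 10 of the 12 mitotic kinesin windows (83.3%), against 17.9% of all 32851 windows of the table. In 9 of the 12 the motif began within 50 bases of the start, against 4.94% of all windows; this distance was chosen after the positions were seen. Only the windows of Kif18a and Kif2b lacked it, and in Kif2c it lay at -103. Among the transport kinesins, 1 of 13 windows of 11 genes (7.69%) held it, that of Kif1a. CCAAT was found in 8 of the 12 mitotic windows (66.7%), in 4 of the 13 transport windows (30.8%) and in 37.4% of all windows. No CCAAT overlapped a CHR in these genes (0 overlaps). The windows of Kifc1 and Kifc5b resemble each other and are not independent. A match of letters is a description and not a binding site. Kif18a, which has no CHR in its window, fell. Kif15, which did not pass, holds 2, at -234 and -19. Any part of the CHR in the ratios of these genes was not tested.

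**Figure D1:**
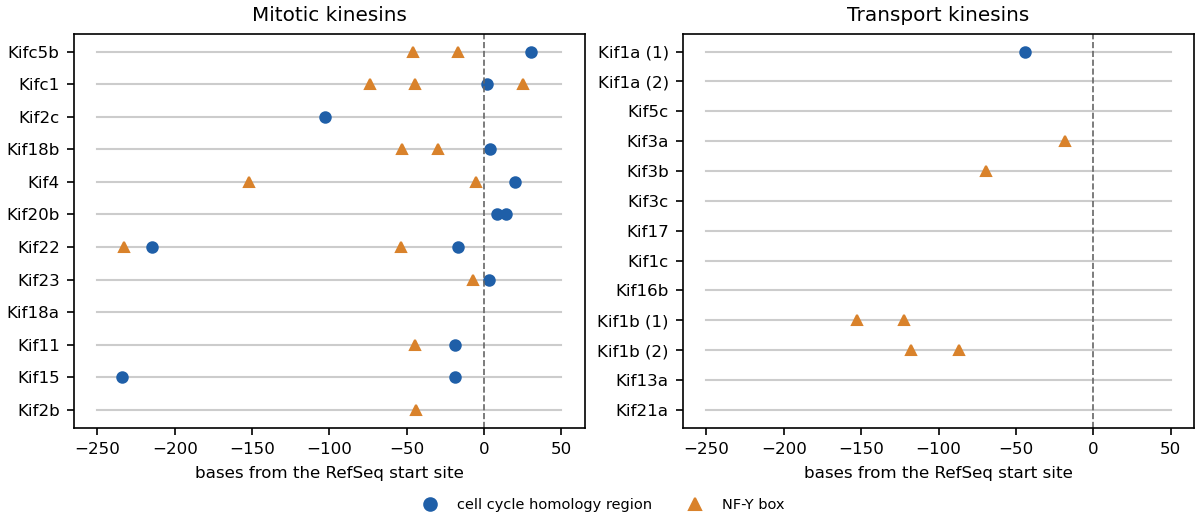
Positions of the CHR (circles) and of the CCAAT box that binds NF-Y (triangles) on the x axis in bases from the RefSeq start site, with 1 line for each promoter window; mitotic kinesins stand left and transport kinesins right, ordered from the lowest mean ratio at the top. Circles lie near the start in 9 of 12 mitotic windows and in 1 of 13 transport windows.

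The transport kinesins went both ways. Of 17 measured, 6 rose in heart, 9 fell and 2 did not pass, with medians of -0.47 on heart-1 and -0.29 on heart-2. On both arrays, 4 of the 17 were at least 2-fold higher and 4 at least 2-fold lower, against 18.1% and 18.5% of all genes. The shares called, 6 and 9 of 17, lie near the backgrounds of 33.8% and 39.3%, so the class as a whole did not stand apart from all genes by this count.

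The transport kinesins that rose were led by Kif21a, a plus-end motor that also slows microtubule growth at the cell cortex. It stood at 1.82 on heart-1 and 2.07 on heart-2, 3.85-fold higher in heart (mean 1.94 ± 0.17, SD, n = 2; limma adjusted p = 0.0033). Kif13a, a carrier of endosomal and Golgi-derived vesicles, was at 1.39 and 1.44. Kif1b, which carries mitochondria and synaptic vesicle precursors, was at 1.33 and 1.34, 2.52-fold higher in heart. The early endosome motor Kif16b was at 1.09 and 1.15. All probes of these 4 genes were positive, from 0.52 to 2.61, and the arrays differed by at most 0.24. The minus-end motors Kifc2 (0.76 and 0.87) and Kifc3 (0.74 and 0.86) rose by less than 2-fold.

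The lowest transport kinesins were Kif1a, Kif21b and Kif5c. Kif1a, which carries synaptic vesicle precursors along axons, fell to -3.47 and -3.69 on the heart-1 and heart-2 arrays, 12-fold lower in heart (mean -3.58 ± 0.16, SD, n = 2; limma adjusted p = 0.00161). Kif21b, a motor of dendrites and lymphocytes, fell to -2.38 and -2.50. Kif5c, a conventional kinesin heavy chain enriched in neurons, fell to -1.42 and -1.32. The probe means of Kif21b ran from -4.30 to -0.16 and those of Kif5c from -2.04 to -0.20. In each, the probe nearest 0 was tied to another record. With RefSeq mRNA probes only, the mean was -3.58 for Kif21b and -1.95 for Kif5c. Markers of neurons and Schwann cells did not share one direction: of 11 measured, 2 rose, 3 fell and 6 did not pass, with means between -1.56 (Prph) and 0.59 (Syp), and their part in the ratios of these motors was not tested. Kif5a, the other neuron-enriched heavy chain, was at -0.47 and -0.34 and fell (limma adjusted p = 0.0191), though its 2 probe means were 0.43 and -1.24 and it no longer passed after each array was centred on its median. Kif17, a dendritic motor, did not pass at -0.72 and 0.05.

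Kif5b, the widely expressed conventional kinesin heavy chain, stayed close to 0. It was at -0.29 on both arrays, 1.22-fold lower in heart (limma adjusted p = 0.0158), but it no longer passed with median-centred arrays. The kinesin-2 motors of intraflagellar and general transport were lower: Kif3a at -1.29 and -1.18, Kif3b at -0.93 and -0.92, and Kif3c at -0.59 and -0.44. The 2 probe means of Kif3c were -1.80 and 0.76. Kif13b, a relative of Kif13a, fell to -0.82 and -1.02, so the relatives Kif13a and Kif13b lay on opposite sides of 0. Kif1c, a carrier of dense-core vesicles and integrins, did not pass at 0.22 and 0.10 (limma adjusted p = 0.105); its 4 probe means ran from -2.10 to 1.88.

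Set side by side, the mitotic kinesins had a lower median than the transport kinesins on each array. The median of the mitotic class minus that of the transport class was -2.97 on heart-1 and -2.37 on heart-2. On their means, 12 of the 13 mitotic kinesins lay below the transport median of -0.33, and 7 of the 17 transport kinesins lay above every mitotic kinesin. The classes overlapped: mitotic means ran from -4.90 to -0.01 and transport means from -3.58 to 1.94, and 5 mitotic kinesins lay below the lowest transport kinesin, Kif1a. The difference between the classes was not tested.

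**Figure D2:**
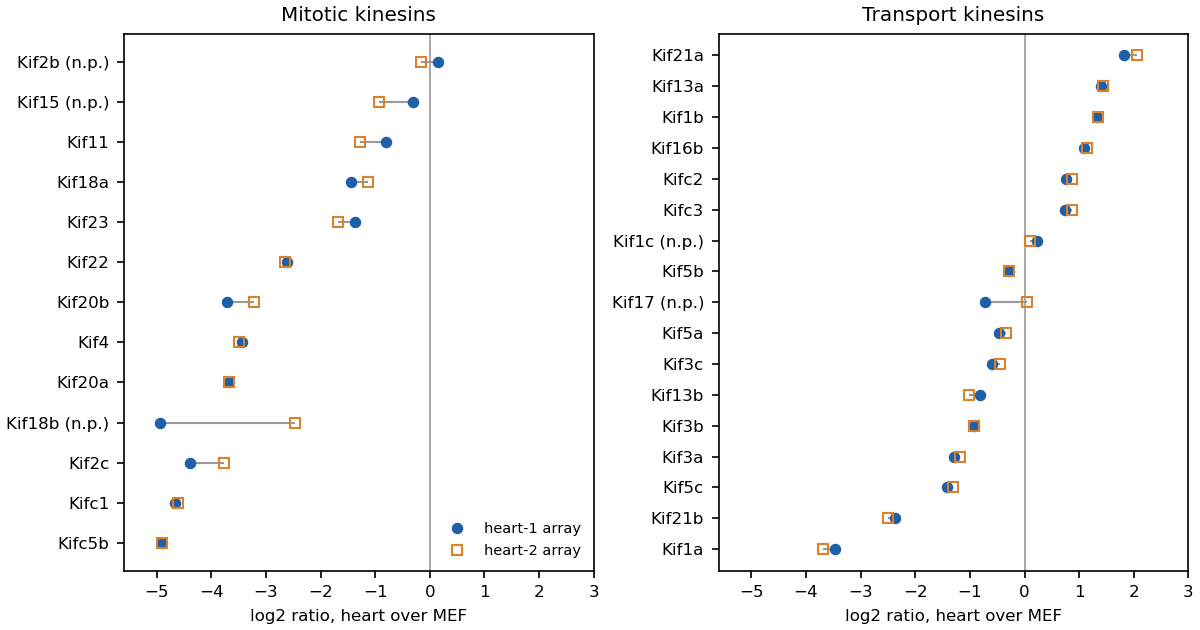
Log2 ratio of heart over MEF on the x axis for each mitotic kinesin (left) and transport kinesin (right), with a filled circle for the heart-1 array, an open square for the heart-2 array and a line between them; n.p. marks genes that did not pass. All mitotic kinesins but Kif2b are negative on both arrays, while the transport kinesins run from Kif1a near -3.6 to Kif21a near 1.9.

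The ciliary, atypical and other kinesins showed no common direction. Of 9 measured, 2 rose, 3 fell and 4 did not pass (median -0.27), against 33.8% higher and 39.3% lower over all genes. Kif26a, an atypical kinesin without motor activity, rose to 2.37 and 2.31 on the heart-1 and heart-2 arrays, 5.05-fold higher in heart (limma adjusted p = 0.00138), over probes at 0.77 and 3.90. Its relative Kif26b, known from kidney development, fell to -2.35 and -2.34, 5.08-fold lower in heart. Kif9, of motile cilia and sperm tails, fell to -2.22 and -2.14. Kif12 rose slightly (0.38 and 0.40), and Kif24, a centriolar kinesin, fell slightly (-0.23 and -0.31). The 2 probe means of Kif24 were -0.66 and 0.12; it did not pass after centring, and with RefSeq mRNA probes only it was at 0.12 and did not pass. Kif6, a motor of motile cilia, was at -3.66 on heart-1 and -0.41 on heart-2, the largest difference between arrays among the 77 genes, and did not pass (limma adjusted p = 0.22). Kif7, of Hedgehog signalling in the cilium (-0.65 and -0.33), Kif27 (0.14 and -0.21) and the depolymerase Kif2a (-0.11 and -0.07) did not pass either. Markers of cells with motile cilia were mostly lower as well, with 6 of 9 falling, 1 rising and 2 not passing (Foxj1 lowest at a mean of -3.21, Tekt1 highest at 0.63); their part in the ratios of Kif9 and Kif6 was not tested.

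Kinesin light chains, which couple the conventional heavy chains to cargo, are grouped here with the Kif3 adaptor. Of these 4 genes, 3 fell in heart and 1 rose, against 39.3% lower and 33.8% higher over all genes. Klc3, known from developing sperm, fell to -3.92 and -3.86 on the heart-1 and heart-2 arrays, 14.8-fold lower in heart (mean -3.89 ± 0.04, SD, n = 2; limma adjusted p = 0.00136). Klc1, the light chain abundant in neurons, fell to -0.99 and -0.95, and Kifap3, the adaptor of the Kif3 motors, to -0.89 and -0.91. Klc4 rose to 0.55 and 0.44. Kifbp, a kinesin-binding protein, was at 0.16 and 0.22, a small rise; after centring its mean was 0.23 and it did not pass.

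Alpha-tubulin isotypes split into those higher and those lower in heart. Of 5 measured, 3 rose and 2 fell, against 33.8% higher and 39.3% lower over all genes. Tuba8, an isotype described in heart, skeletal muscle and testis, was the highest of all 77 genes, at 6.01 on heart-1 and 6.17 on heart-2, 68.2-fold higher in heart (mean 6.09 ± 0.11, SD, n = 2; limma adjusted p = 0.00136). Tuba4a, the isotype whose gene already lacks the final tyrosine that other alpha-tubulins carry, was at 3.77 and 3.81, 13.8-fold higher, and its 3 probe means lay between 3.21 and 4.35. Tuba3a, a testis isotype, rose to 1.38 and 1.37, but its 2 probes were at -1.06 and 3.81. Tuba1a, the main isotype of developing neurons, fell to -2.08 and -2.02, 4.14-fold lower in heart, and the related Tuba1c fell to -1.03 and -1.08. Markers of other cells of the heart moved with Tuba8 and Tuba4a: of 7 platelet and megakaryocyte markers measured of 8 listed, 6 rose and 1 fell (means from -0.21 for Gp1bb to 7.12 for Gp9, median 2.97), and all 7 endothelial markers rose (means from 1.73 for Erg to 7.53 for Cdh5, median 3.21). All 14 cardiomyocyte markers rose as well (means from 3.36 for Actc1 to 11.2 for Pln, median 6.78). The part of any of these cells in the tubulin ratios was not tested. Alpha-tubulin genes are close copies, so some probes may bind transcripts of more than 1 of them. Tuba1b, Tuba3b and Tubal3 are not analysed here.

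Of 7 beta-tubulins measured, 5 fell in heart and 2 rose, against 39.3% lower and 33.8% higher over all genes, with medians of -1.98 on heart-1 and -2.01 on heart-2. Tubb2b, an isotype of migrating neurons, was at -3.51 and -3.46 and Tubb5, the main isotype of dividing cells, at -3.15 and -3.13. Tubb2b was 11.2-fold and Tubb5 8.82-fold lower in heart (limma adjusted p = 0.00136 for both). Tubb4a, known from brain, was at -3.13 and -3.08. Tubb2a followed at -1.98 and -2.01, with all 3 probes negative between -3.06 and -0.98, and Tubb3, a marker of neurons that other cells also express in culture, at -1.31 and -1.39. Tubb4b, a widely expressed isotype, rose to 0.99 on both arrays, 1.99-fold higher in heart (limma adjusted p = 0.00237).

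Tubb6 had opposite signs in its probes, and its call turned with the probe used. As the mean of 2 probes it was at 0.58 and 0.65 and counted as higher in heart (limma adjusted p = 0.00591). The probe tied to a RefSeq mRNA was at -1.78 and -1.67, and that tied to another record at 2.94 and 2.96. With RefSeq mRNA probes only, a choice made after the probes were seen, Tubb6 was at -1.72 ± 0.08 (SD, n = 2; limma adjusted p = 0.00164) and 6 of the 7 beta-tubulins would be lower.

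**Figure D3:**
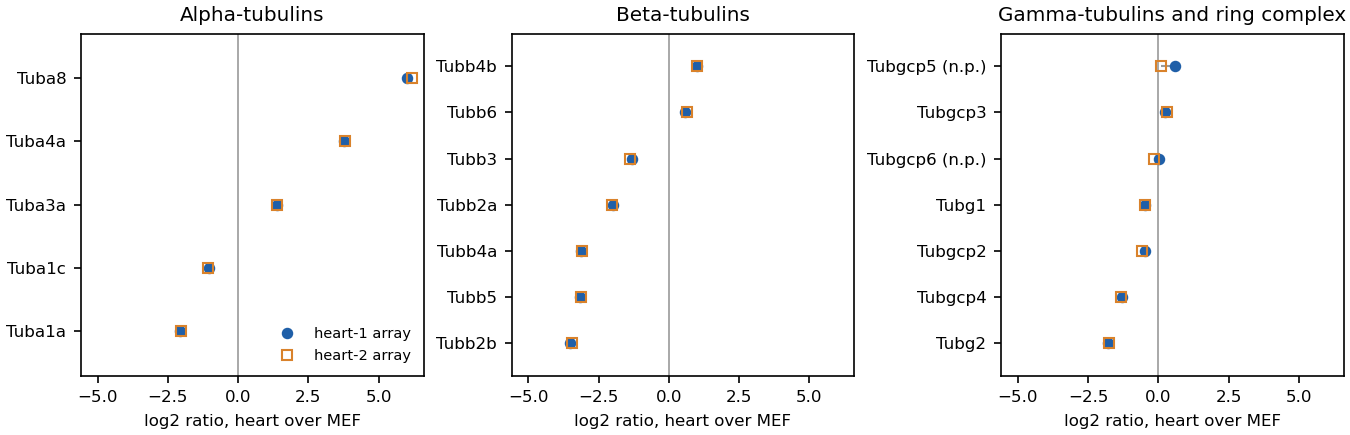
Log2 ratio of heart over MEF on the x axis for each alpha-tubulin, beta-tubulin and gamma-tubulin or ring complex gene, with a filled circle for the heart-1 array and an open square for the heart-2 array; n.p. marks genes that did not pass. Tuba8 and Tuba4a stand far to the right near 6.1 and 3.8, 5 of the 7 beta-tubulins lie between -3.5 and -1.3, and the gamma-tubulin and ring complex genes lie between -1.8 and 0.6.

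The gamma-tubulin ring complex, which nucleates microtubules, changed less. Its 7 genes had a median of -0.48. In heart, 4 were lower, 1 was higher and 2 did not pass, against 39.3% lower and 33.8% higher over all genes. Tubg2, the less widely used gamma-tubulin, fell to -1.79 and -1.76, 3.43-fold lower in heart, and Tubg1, the main gamma-tubulin, to -0.49 and -0.47. Among the ring proteins, Tubgcp4 fell to -1.28 and -1.31 and Tubgcp2 to -0.49 and -0.57. Tubgcp3 rose to 0.25 and 0.30 (limma adjusted p = 0.0221) but did not pass after centring. Tubgcp5 (0.60 and 0.11) and Tubgcp6 (0.01 and -0.15) did not pass.

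Cytoplasmic dynein 1 is the main inward motor. Of its 5 measured subunits, 4 fell and 1 rose (median -0.63), against 39.3% lower and 33.8% higher over all genes. Its heavy chain Dync1h1, the motor itself, was at -0.42 on both arrays, 1.34-fold lower in heart (limma adjusted p = 0.00828), with probes between -1.08 and 0.01 and a call that was lost on centring. Of its intermediate chains, which join the heavy chain to dynactin, the widely expressed Dync1i2 fell to -1.10 and -1.05. The neuronal Dync1i1 was at -2.63 on heart-1 and -5.20 on heart-2 and passed narrowly (limma adjusted p = 0.049). Its call was lost with the probe median, a robust variance prior or the gene's own variance. The light intermediate chains, which hold cargo adaptors, differed: Dync1li1 rose to 2.28 on both arrays, 4.86-fold higher in heart (limma adjusted p = 0.00137, 1 probe), whereas Dync1li2 fell to -0.66 and -0.61.

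The 2 measured subunits of dynein 2, the inward motor of cilia, were lower, against 39.3% of all genes. Dync2i1 and Dync2i2, on the same list, are not analysed here. Dync2li1 fell to -1.91 and -1.86, 3.69-fold lower in heart. Dync2h1, its heavy chain, fell to -0.86 and -1.07 over 8 probes, of which 6 were negative and 2 positive (-2.69 to 1.06). The 2 positive probes were tied to other records, and 1 of them read 1.61 on heart-1 and -0.13 on heart-2. With RefSeq mRNA probes only, the mean of Dync2h1 was -1.58.

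The dynein light chains also split between close relatives. Of 7 measured, 4 rose and 3 fell, against 33.8% higher and 39.3% lower over all genes. Dynll2 and Dynll1 encode nearly identical proteins that serve as dimerisation hubs in dynein and in other complexes. Dynll2 rose to 1.78 on heart-1 and 1.76 on heart-2, 3.41-fold higher in heart (mean 1.77 ± 0.01, SD, n = 2; limma adjusted p = 0.00145), although 1 of its 3 probes was at -0.08 and the others at 2.65 and 2.73. Dynll1 fell to -1.60 and -1.61, 3.04-fold lower in heart, with probes at -2.01 and -1.20. Of the roadblock chains, Dynlrb2 rose to 0.82 and 0.74, with probes at -0.27 and 1.83, and Dynlrb1 fell to -0.17 and -0.23. Of the Tctex chains, Dynlt1f rose to 1.06 and 1.04 and Dynlt3 to 0.32 and 0.30, while Dynlt1b was at -0.26 on both arrays; the Dynlt1 genes are close copies, and their probes may bind each other's transcripts. With centred arrays, Dynlrb1, Dynlt1b and Dynlt3 did not pass.

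**Figure D4:**
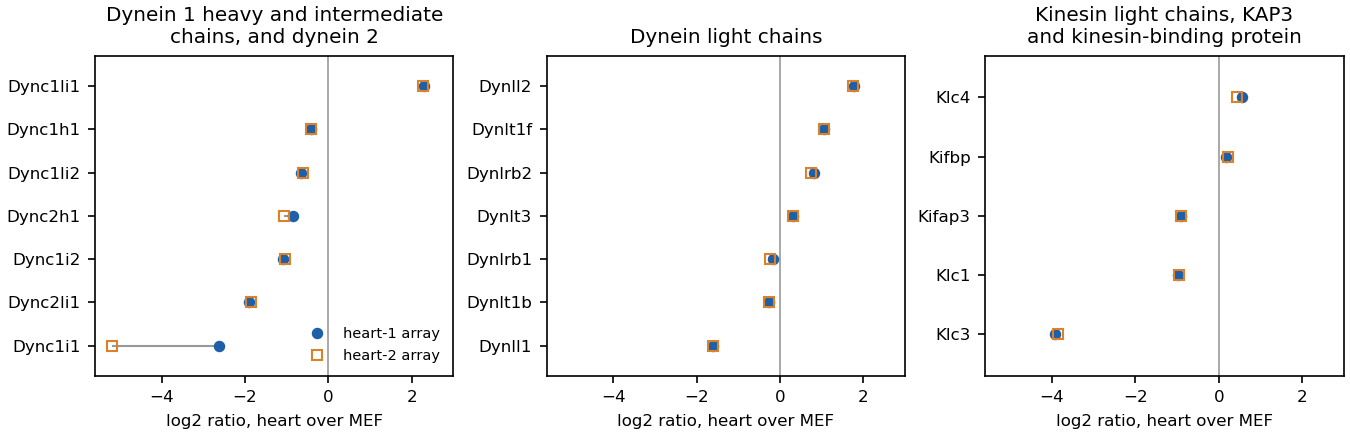
Log2 ratio of heart over MEF on the x axis for dynein 1 and dynein 2 chains (left), dynein light chains (middle) and kinesin light chains with their adaptors (right), with a filled circle for the heart-1 array and an open square for the heart-2 array. Dync1li1 and Dynll2 stand right of 0 near 2.3 and 1.8, and their relatives Dync1li2 and Dynll1 left of it, while Dync1i1 differs by 2.56 between the arrays.

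Genes that work with these motors were followed through lists, whose counts stand against 33.8% higher and 39.3% lower over all genes. Of 17 measured dynactin subunits and dynein regulators, 4 rose, 10 fell and 3 did not pass (median -0.41). Dctn2 (-1.22) and Dctn5 (-0.89) were among those that fell, and Hook1 (3.22), a cargo adaptor of dynein, Bicd2 (0.90) and Dctn6 (0.79) among the risers. Of 12 kinesin cargo adaptors, 8 rose, 2 fell and 2 did not pass (median 0.77). Rhot2 (mean 2.98) and Trak2 (2.89), which tie mitochondria to kinesin, and Trak1 (1.73) were among the risers, while Fez1, an adaptor known from neurons, fell to -3.70 and Mapk8ip1 to -0.52. Tubulin folding cofactors and chaperonin subunits held 8 genes that fell, 0 that rose and 7 that did not pass (median -0.24), with Tbcd (-2.43), Cct4 (-1.67), Cct2 (-1.38) and Tbcel (-0.76) lowest.

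Proteins that bind along microtubules or at their growing ends went both ways. Of 18 microtubule-associated proteins, 7 rose, 10 fell and 1 did not pass (median -0.42). Mapt, tau, stood at 5.81 and 5.89 on the heart-1 and heart-2 arrays, 57.6-fold higher in heart, followed by Map7, a recruiter of conventional kinesin, at 4.07 and Mtus2 at 3.40; Dclk1 fell most, to -2.44. Of 13 plus-end tracking proteins, 7 rose, 3 fell and 3 did not pass (median 0.83), with Clip4 (2.48), Slain1 (2.30) and Clip1 (1.98) rising and Clip2 (-2.37), Mapre1 (-1.09) and Mapre3 (-0.31) falling. Of 19 tubulin-modifying enzymes, 5 rose, 11 fell and 3 did not pass (median -0.64). Vash2, which removes the final tyrosine of alpha-tubulin, fell to -4.11, Ttll12 to -2.24 and Ttll3 to -1.49, while Ttll11, a polyglutamylase, rose to 1.97, the deglutamylase Agtpbp1 to 1.11 and Ttll1, also a polyglutamylase, to 0.92.

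The remaining lists were small or mixed. Of 10 severing enzymes and stathmins, 2 rose, 4 fell and 4 did not pass, with Fign, a severing enzyme, at 3.07 and the tubulin-binding Stmn1 at -1.97. Stmn2 rose to 0.88, and Katnal2 (-2.70) and Fignl1 (-2.42) fell. Of 17 axonemal dynein genes, 3 rose, 4 fell and 10 did not pass, with a median of -0.15 and means from -1.09 (Dnal1) to 0.60 (Dnal4). Of the other tubulins, Tube1 fell to -1.83 and Tubd1 did not pass at 0.09.

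The probes of a gene did not always agree, and this touched the calls of several genes named above. Of 50 members with more than 1 probe, 22 (44%) had probe means of opposite sign, against 39.1% of all 8511 genes with more than 1 probe. The median range between probes was 1.26 in the members, against 0.95 in all genes with more than 1 probe. In 17 of the members it exceeded 2. Of the 21 genes called higher, 15 had every probe positive, and of the 45 called lower, 36 had every probe negative. These counts include genes with 1 probe, 27 of the 77 members, in which probes cannot disagree. Of the 158 probes, 135 were tied to a RefSeq mRNA and 23 to another record. Among the 23, 10 (43.5%) had a mean within 0.25 of 0, against 15 of the 135 (11.1%); over all named probes these shares were 34.3% and 19.3%. With RefSeq mRNA probes only, Kif23 was at -3.09 and -3.28 on the heart-1 and heart-2 arrays, Kif18a at -3.06 and -2.12, and Kif11 at -1.29 and -1.85, and all 3 still fell.

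**Figure D5:**
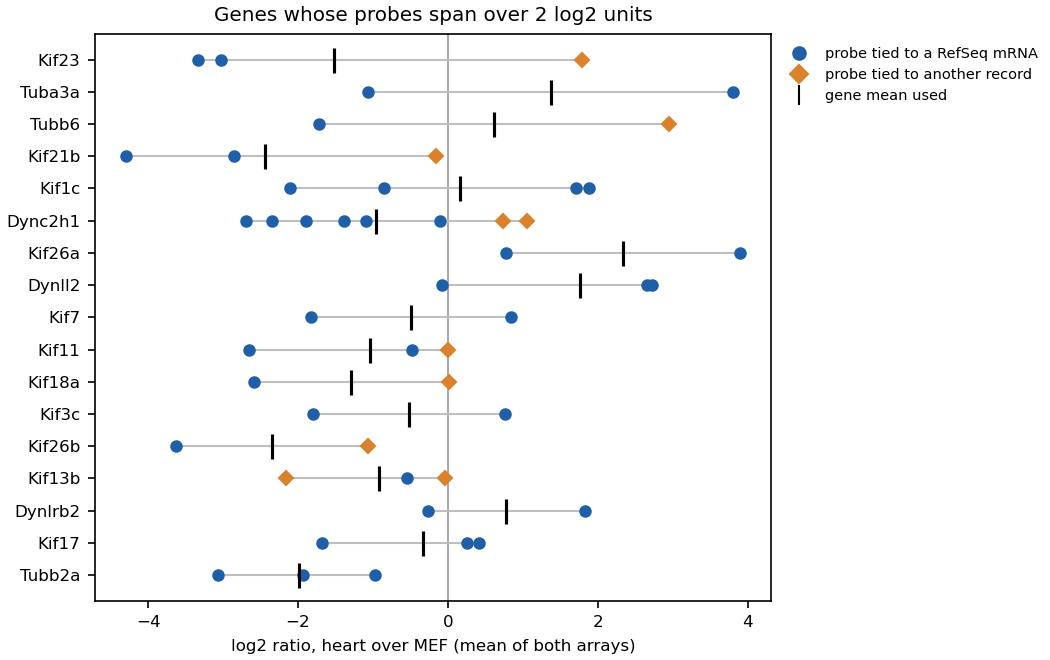
Mean log2 ratio of heart over MEF on the x axis for each probe of the 17 genes whose probes span over 2 units, ordered from the widest at the top; circles are probes tied to a RefSeq mRNA, diamonds probes tied to another record, and the black bar is the gene mean used. The bars of Kif23 and Tubb6 lie between probes of opposite sign, and the diamonds of Kif11 and Kif18a lie at 0.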

How the data were processed

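The authors deposited a table of 41174 probes on 2 arrays, whose values were taken as log2 ratios of heart over MEF. Agilent Feature Extraction is named per the submitters' processing notes; for its version, background correction, normalization and filters, nothing was given in the sources used here. Channel intensities were not used here, so signal over background and saturation could not be judged, and the number of arrays limits the precision.

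Probes with 1 gene symbol in the platform annotation (32664) were averaged per gene and array to 19532 genes. One intercept per gene was fitted over all genes by lmFit and eBayes (limma 3.58.1, R 4.3.3), with 1 residual and 1.25 prior degrees of freedom. The test was two-sided, with a Benjamini-Hochberg adjusted p under 0.05. The fit was also run on simulated data with a known zero and variances drawn from its own prior. That run does not test the calls made on these arrays, whose zero is unknown. Errors are the SD of 2 arrays. All 77 symbols were found in a RefSeq table of GRCm38.p6. Kinesin classes and lists follow textbook function; members and lists were chosen with earlier results of these data known. All members may be named; from each list, at most 4 genes of greatest absolute ratio were named, and at most 3 that opposed most of it. Kifbp was classed after the values arrived. Alternatives covered centring, scaling, probe medians, a near-constant band (0.12 to 0.20 on heart-1, -0.20 to -0.10 on heart-2), the variance prior, treat, narrower classes and RefSeq mRNA probes. Tables were handled in Python 3.11.15.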

Additional observations from a re-analysis of the deposited data

How the results depend on the processing

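Against a 2-fold change by limma's treat, 9 members were higher and 23 lower in heart, and with the gene's own variance, which leaves 1 degree of freedom, 12 and 26. For the mitotic kinesins, 5 fell with the gene's own variance. For the transport kinesins, treat called 3 higher and 3 lower, and the gene's own variance 3 higher and 2 lower. Leaving out 1 array at a time, the mitotic median ran from -3.44 to -2.66, the transport median from -0.47 to -0.29 and their difference from -2.97 to -2.37. Centring the arrays left 18 members higher and 43 lower. Calls were lost by 9 members (Dync1h1, Dynlrb1, Dynlt1b, Dynlt3, Kif24, Kif5a, Kif5b, Kifbp and Tubgcp3) and gained by 4 (Kif15, Kif18b, Kif6 and Kif7). Of the 9, the means of Dynlt3 (0.31 to 0.34), Kifbp (0.19 to 0.23) and Tubgcp3 (0.28 to 0.31) moved away from 0. The means of the 4 that gained a call moved towards 0. Whether the moved zero or the variance estimate of the centred fit changed these calls was not tested. Among the members that passed, the sign turned in Tubb6 (-1.72) and Kif24 (0.12) with RefSeq mRNA probes only, an alternative chosen after the data were seen. Of those that did not pass, Tubgcp6 turned to 0.22 with probe medians, where it passed, and Kif17, Kif27, Kif2a and Kif2b changed sign in at least 1 setting without passing in it. By construction the RefSeq setting dropped the probes tied to other records. Kif11 also lost its call with probe medians (-0.48). The counts and medians of the other settings, among them the near-constant band and narrower kinesin classes, stayed on the same side and within 1.5 times or 1 SD. No paired analysis was possible because the arrays form 1 group. A dye bias or a shifted zero could not be measured with 2 arrays of 1 dye orientation.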
